A study of Mus musculus with 8 samples.

Results

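The collagen genes are the rows whose symbol has the form Col, a type number, a and a chain number. Of 24421 genes in the tables, 44 met this rule, and all 44 passed the filter on low counts, which kept 15458 genes. Their RNA was followed in a hybrid CAST/Ei x 129/Sv/Jae line of mouse embryonic stem cells, a cross of a wild-derived and a laboratory strain, that carried the HNRNPK 6A mutation (6A) or was wild type (WT). HNRNPK is an RNA-binding protein that takes part in X inactivation by Xist, and the sources used here do not say what 6A stands for or how many clones were used. Cells at day 14 had left medium with leukemia inhibitory factor, had grown in suspension as embryoid bodies for 4 days and were then plated on gelatin at day 5. Cells at day 0 were undifferentiated cells grown with the factor on irradiated mouse embryonic fibroblasts, the feeders, which were removed before harvest. The series' design text gives day 7 for the differentiated cells, but the titles, cell type labels and protocol give day 14, the time taken below. There were 2 libraries in each of 4 groups, 6A day 14, WT day 14, 6A day 0 and WT day 0.

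Collagens are secreted proteins whose alpha chains wind into a long helix. Fibrillar collagens (types I, II, III, V, XI, XXIV and XXVII) form the banded fibrils of connective tissue. Basement membrane collagens (type IV, with XV and XVIII) form the sheet under epithelia and around vessels, and cartilage carries its own set of types II, IX, X, XI and XXVII. Embryoid bodies lay down a basement membrane early and form mesenchyme, muscle and vessels later.

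Library totals ran from 8146684 to 15540163 counts, so that 3 counts amounted to 0.193 to 0.368 CPM, the count scaled to a common library size. The pluripotency markers fell in both genotypes, 8 of 8 in each, at day 14 against day 0. Hnrnpk, the mutated gene, had 348 and 385 CPM in 6A at day 14, against 495 and 474 CPM in WT at day 14. At day 0 it had 527 and 538 CPM in 6A, against 880.0 and 709 CPM in WT. The 4 Y-linked genes on the marker list, which female cells lack, summed to 0.0966 and 0 CPM in 6A at day 14 and 0 in both WT libraries at day 14. At day 0 they summed to 43.4 and 46.9 CPM in 6A, against 28.3 and 28.2 CPM in WT. The levels of collagen genes at day 0 therefore stand beside a measurable Y-linked signal, and the part of feeder RNA in them was not tested. In bulk RNA, fewer cells of a type and less RNA per cell cannot be told apart.

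Several type IV collagen genes lie head to head, so that a pair of genes starts from almost the same place on opposite strands. The start regions of a pair whose ratio varied little with time and of a pair whose ratio varied widely are shown. No link between start regions and levels was tested. The wide ratio rests on Col4a6, which had 3 to 10 counts per library at day 0. The pair Col4a3 and Col4a4, with starts 72 bases apart in GENCODE, is not shown, as Col4a3 had no RefSeq window. In RefSeq annotation of GRCm38.p6, the start sites of Col4a1 and Col4a2 on chromosome 8 lie 21 bases apart, and those of Col4a5 and Col4a6 on the X chromosome lie 1343 bases apart. The windows run from 250 bases before to 50 bases after the start site, on the strand of each gene. Capitals mark the TATA box (TATAAA), the CCAAT box (letters as in its name) and the GC box (GGGCGG) on either strand, and the windows of Col4a1 and Col4a2 share 78 bases.

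Col4a1, chr8:11312777-11313076, minus strand: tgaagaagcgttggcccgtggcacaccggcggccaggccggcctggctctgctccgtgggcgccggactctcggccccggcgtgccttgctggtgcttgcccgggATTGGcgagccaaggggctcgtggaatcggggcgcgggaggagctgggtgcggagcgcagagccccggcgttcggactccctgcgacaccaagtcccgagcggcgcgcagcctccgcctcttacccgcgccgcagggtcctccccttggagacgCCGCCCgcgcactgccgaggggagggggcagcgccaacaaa

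Col4a2, chr8:11312555-11312854, plus strand: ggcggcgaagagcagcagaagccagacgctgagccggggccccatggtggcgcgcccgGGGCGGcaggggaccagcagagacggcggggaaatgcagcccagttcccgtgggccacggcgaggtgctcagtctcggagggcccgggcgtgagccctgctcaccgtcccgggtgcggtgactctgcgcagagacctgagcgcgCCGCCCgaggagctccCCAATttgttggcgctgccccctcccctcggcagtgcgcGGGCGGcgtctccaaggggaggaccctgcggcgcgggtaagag

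Col4a5, chrX:141475169-141475468, plus strand: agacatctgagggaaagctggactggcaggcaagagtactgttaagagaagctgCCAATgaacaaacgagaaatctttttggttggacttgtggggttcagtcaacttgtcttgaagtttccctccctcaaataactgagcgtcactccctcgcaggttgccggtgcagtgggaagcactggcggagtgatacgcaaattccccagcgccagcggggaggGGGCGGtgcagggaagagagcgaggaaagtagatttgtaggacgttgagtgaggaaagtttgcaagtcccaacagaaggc

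Col4a6, chrX:141474027-141474326, minus strand: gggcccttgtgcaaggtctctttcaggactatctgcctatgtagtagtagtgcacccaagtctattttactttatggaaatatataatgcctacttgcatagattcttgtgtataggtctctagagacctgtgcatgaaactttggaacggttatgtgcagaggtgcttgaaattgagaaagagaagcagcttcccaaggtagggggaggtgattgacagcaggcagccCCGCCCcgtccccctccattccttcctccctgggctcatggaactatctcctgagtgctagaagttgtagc

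None of the 4 windows holds TATAAA on either strand. The GC content was 74.0% for Col4a1 and 73.7% for Col4a2, against 52.7% for Col4a5 and 48.3% for Col4a6. Of the 44 collagen genes, 35 were matched in RefSeq, with 38 windows in all. GGGCGG stood in 60.5% of these and in 35.7% of all windows, CCAAT in 34.2% and 37.4%, and TATAAA in 13.2% and 13.6%. These are matches of letters, with both strands read, and no overlap with other motifs was removed.

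Collagen RNA made up 2.10% and 1.59% of all counts in 6A at day 14 and 1.81% and 1.60% in WT at day 14. At day 0 the shares were 0.419% and 0.342% in 6A, and 0.294% and 0.338% in WT. Every day 14 library was above every day 0 library, and at day 14 the genotypes overlapped. At day 0 both 6A libraries were above both WT libraries, although 0.342% and 0.338% were close. Levels of different genes are compared as CPM per kilobase of exon. Summed over the collagen genes, these were 689 and 543 in 6A and 483 and 553 in WT at day 0, so the genotypes overlapped. On that scale fibrillar collagens held 76.1% and 70.7% of the collagen signal in 6A at day 14 and 69.8% and 69.3% in WT at day 14. At day 0 they held 50.2% and 42.6% in 6A and 48.5% and 41.9% in WT. Basement membrane collagens held 14.9% and 17.7% in 6A at day 14, 17.9% and 17.3% in WT at day 14, 19.8% and 21.4% in 6A at day 0, and 25.3% and 26.8% in WT at day 0. Type VI, a beaded filament of the pericellular matrix, held 4.35% and 5.65% in 6A at day 14 and 6.68% and 7.12% in WT at day 14. At day 0, type VI held 23.6% and 28.1% in 6A and 19.9% and 24.8% in WT. Cartilage types, some of which are also fibrillar, held 1.32% and 1.47% in 6A and 2.57% and 2.51% in WT at day 14. Their shares at day 0 were 3.15% and 3.70% in 6A and 3.24% and 3.12% in WT. The order of the classes was thus fibrillar first in every library, with type VI close to basement membrane collagens at day 0 and far under them at day 14.

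**Figure D1:**
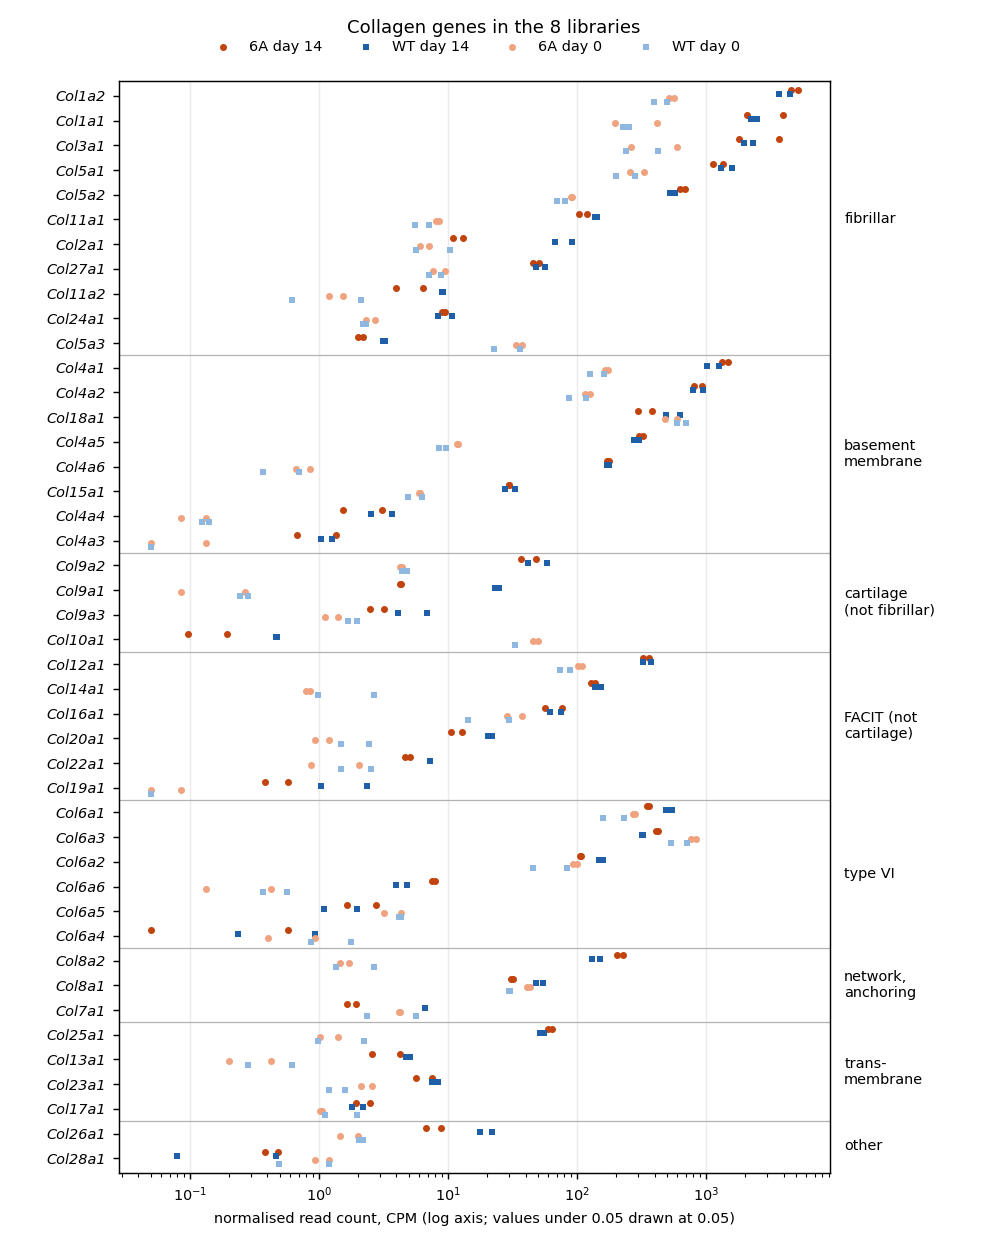
Normalised read count (CPM, log axis) of each of the 44 collagen genes in the 8 libraries, with a colour for each of the 4 groups and a point for each library. Most genes sit higher at day 14 than at day 0, with Col10a1 and Col5a3 far lower, and the fibrillar Col1a2, Col1a1 and Col3a1 are the most abundant at day 14.

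Differentiation raised most collagen genes in both genotypes. At day 14 against day 0, 34 of 44 rose and 6 fell in 6A, while 35 rose and 5 fell in WT (edgeR quasi-likelihood test with 4 coefficients for the 4 groups, Benjamini-Hochberg adjusted p under 0.05). Over all 15458 genes, 71.9% were called in 6A (35.4% higher, 36.6% lower) and 75.2% in WT (38.4% higher, 36.8% lower). The median log2 fold change was 2.22 for the collagen genes and -0.03 for all genes in 6A, and 2.698 and 0.04 in WT. The protocol calls the libraries biological replicates without saying whether they came from separate cultures, so the p-values measure only the spread between these libraries.

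The fibrillar genes rose in both genotypes, 10 of 11, the exception being Col5a3. Col1a2, the second chain of type I collagen, was the most abundant collagen per kilobase at day 14. It had 5136 and 4533 CPM in 6A at day 14, against 562 and 518 CPM in 6A at day 0, a log2 fold change of 3.16 ± 0.15 (SE; edgeR adjusted p = 7.0e-10). In WT it had 4494 and 3695 CPM at day 14, against 394 and 501 CPM at day 0, a log2 fold change of 3.19 ± 0.16 (edgeR adjusted p = 5.6e-10). Its day 14 and day 0 libraries were far apart in both genotypes. Col1a1, the partner chain in type I fibrils, had 3929.7 and 2097 CPM in 6A and 2477 and 2222 CPM in WT at day 14, and 417 and 197 CPM in 6A and 252 and 226 CPM in WT at day 0. Col3a1, the type III chain of soft tissues, had 3662 and 1810.4 CPM in 6A and 2326 and 1991 CPM in WT at day 14, and 594 and 264 CPM in 6A and 425 and 241 CPM in WT at day 0. Within 6A, replicate 1 exceeded replicate 2 at both days for these genes, by 1.87 times for Col1a1 and 2.02 times for Col3a1 at day 14, and by 2.12 and 2.25 times at day 0. The same ratio was 1.13 at day 14 and 1.09 at day 0 for Col1a2, so the type I chains did not keep the same ratio between these libraries. Per kilobase, Col1a1 over Col1a2 was 0.690 and 0.417 in 6A and 0.497 and 0.542 in WT at day 14. The cause of this spread was not tested, and it sets the standard errors of Col1a1 (log2 fold change of 3.30 ± 0.48 in 6A) and Col3a1 (2.67 ± 0.60 in 6A). In WT, the rise of Col3a1 (2.699 ± 0.60, edgeR adjusted p = 0.011) was not called without WT day 0 replicate 2 (2.34, edgeR adjusted p = 0.073).

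Col5a1, a minor fibril chain that regulates fibril diameter, had 1364 and 1131 CPM in 6A and 1589 and 1299 CPM in WT at day 14, against 331 and 257 CPM in 6A and 203 and 283 CPM in WT at day 0. Its log2 fold change with time was 2.09 ± 0.19 in 6A and 2.57 ± 0.19 in WT (edgeR adjusted p = 8.5e-07 and 1.3e-07). Col5a3, a chain of the same type, went the other way and fell by 4.05 ± 0.26 in 6A and by 3.23 ± 0.24 in WT on the log2 scale (edgeR adjusted p = 8.4e-09 and 3.8e-08). It had 2.22 and 2.03 CPM in 6A and 3.25 and 3.16 CPM in WT at day 14, against 37.5 and 33.5 CPM in 6A and 22.7 and 36.6 CPM in WT at day 0.

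Of the 8 basement membrane genes, 7 rose and 1 fell in 6A, and 7 rose in WT. Col4a1 and Col4a2, which code for the chains found in nearly every basement membrane, moved together. Col4a1 had 1488 and 1327 CPM in 6A and 1269 and 1026 CPM in WT at day 14, against 174 and 164 CPM in 6A and 126 and 164 CPM in WT at day 0. Its log2 fold change was 3.06 ± 0.15 in 6A and 2.98 ± 0.15 in WT (edgeR adjusted p = 9.3e-10 and 1.0e-09). Col4a2 had 927 and 805 CPM in 6A and 948 and 796 CPM in WT at day 14, against 127 and 115 CPM in 6A and 87.4 and 118 CPM in WT at day 0, a log2 fold change of 2.84 ± 0.16 in 6A and 3.08 ± 0.16 in WT. Per kilobase, the ratio of Col4a1 to Col4a2 stayed between 1.26 and 1.61 in all 8 libraries. These genes overlap at their starts, and whether strand was used in counting is not stated, so reads from the overlap cannot be told apart.

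The X-linked pair Col4a5 and Col4a6, whose chains replace the common ones in kidney, skin and smooth muscle basement membranes, did not keep a constant ratio. Col4a6 had 172 and 177 CPM in 6A and 177 and 171 CPM in WT at day 14, against 0.855 and 0.668 CPM in 6A and 0.370 and 0.706 CPM in WT at day 0. Its log2 fold change of 7.84 ± 0.19 in 6A and 8.20 ± 0.21 in WT was the largest rise among the 44 genes (edgeR adjusted p = 4.6e-12 and 4.9e-12). Col4a5 had 324 and 301 CPM in 6A and 305 and 279 CPM in WT at day 14, against 12.0 and 11.9 CPM in 6A and 9.75 and 8.61 CPM in WT at day 0, a log2 fold change of 4.71 ± 0.13 in 6A and 5.00 ± 0.14 in WT. Per kilobase, Col4a5 exceeded Col4a6 by 1.66 to 1.92 times in the 4 day 14 libraries and by 12.4 to 26.8 times in the 4 day 0 libraries, where Col4a6 rests on few reads. Col4a3 and Col4a4, the kidney chains, stayed low, at 0.676 to 3.72 CPM over the day 14 libraries. Col4a3 had 0 counts in both WT libraries at day 0, so its rise in WT was at least 8.72-fold, taking 3 counts over the group as the floor. With it at that bound, the median log2 fold change of the 8 basement membrane genes in WT is 3.10 instead of the fitted 3.77.

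Col18a1, the source of endostatin, behaved differently from the type IV genes. It had 382 and 296 CPM in 6A at day 14, against 593 and 479 CPM in 6A at day 0, and it fell by 0.66 ± 0.16 on the log2 scale (edgeR adjusted p = 0.0028). In WT it had 635 and 493 CPM at day 14 and 592 and 699 CPM at day 0, values that overlapped, with a log2 fold change of -0.20 ± 0.16 (edgeR adjusted p = 0.29). The difference between these changes was not called (interaction -0.47 ± 0.23, edgeR adjusted p = 0.30). Part of Col18a1 overlaps Slc19a1, whose reads cannot be told apart without the strand setting. Type VI followed no common direction: 2 of 6 rose and 1 fell in 6A, and 3 rose and 2 fell in WT. Col6a3, a long chain of the type VI filament, fell by 0.93 ± 0.13 in 6A and by 0.96 ± 0.13 in WT on the log2 scale (edgeR adjusted p = 2.4e-05 and 1.7e-05), with 426 and 411 CPM in 6A and 324 and 318 CPM in WT at day 14, against 834 and 764 CPM in 6A and 534 and 712 CPM in WT at day 0.

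Among the cartilage types, 7 of 8 rose in each genotype and Col10a1 fell. Col11a1, a chain that seeds type II fibrils, had 121 and 105 CPM in 6A and 139 and 144 CPM in WT at day 14, against 8.12 and 8.61 CPM in 6A and 5.55 and 7.20 CPM in WT at day 0. Col9a2, a chain of the type IX collagen that coats cartilage fibrils, had 48.1 and 36.9 CPM in 6A and 58.3 and 41.6 CPM in WT at day 14, against 4.28 and 4.41 CPM in 6A and 4.44 and 4.80 CPM in WT at day 0. Col10a1, the collagen of hypertrophic cartilage, had 0.193 and 0.0965 CPM in 6A and 0.464 and 0.474 CPM in WT at day 14, against 49.7 and 45.4 CPM in 6A and 32.9 and 33.0 CPM in WT at day 0. In 6A this was 3 counts against 1261, a ratio of day 0 to day 14 of 327 with an exact binomial 95% interval of 112 to 1585, which covers counting error only. In WT it was 10 counts against 734, a ratio of 70.2 (37.9 to 147). Col10a1 lies inside Nt5dc1 on the opposite strand, and Nt5dc1 itself had 10.2 and 9.36 CPM in 6A and 9.39 and 9.01 CPM in WT at day 14, against 8.89 and 11.3 CPM in 6A and 9.13 and 5.79 CPM in WT at day 0.

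Other cartilage genes moved both ways. Of 7 tested markers of cartilage, 3 rose and 3 fell in 6A and 3 rose and 2 fell in WT with time: Matn4, Sox9 and Hapln1 rose and Matn1 and Acan fell in both genotypes, and Comp fell in 6A. Hapln1, which links proteoglycan to hyaluronan, had 16.6 and 15.7 CPM in 6A and 9.74 and 11.2 CPM in WT at day 14, against 2.65 and 3.87 CPM in 6A and 0.987 and 2.12 CPM in WT at day 0. Acan, the large cartilage proteoglycan, had 2.12 and 1.93 CPM in 6A and 1.28 and 1.27 CPM in WT at day 14, against 15.1 and 13.1 CPM in 6A and 10.1 and 12.8 CPM in WT at day 0. The summed level of the 10 listed cartilage markers, 8 of them in the tables, was 33.1 and 35.1 CPM in 6A and 45.4 and 44.9 CPM in WT at day 14, and 31.7 and 33.0 CPM in 6A and 24.3 and 31.1 CPM in WT at day 0. The 12 markers of fibroblasts and mesenchyme summed to 2080 to 2192 CPM in 6A and 2242 to 2258 CPM in WT at day 14, and to 1021 to 1040 CPM in 6A and 777 to 809 CPM in WT at day 0.

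At day 0 the mutation had no called effect on a collagen gene. Of 44 genes, 0 were called in 6A against WT by edgeR and 0 by DESeq2, beside 1.58% of all genes by edgeR (1.06% higher, 0.518% lower). At an unadjusted p under 0.05, edgeR gave 11 collagen genes, 9 of them higher in 6A, beside 16.4% of all genes. The split by direction over all genes at this threshold was not computed. The median log2 fold change of the collagen genes was 0.16, or 0.08 with Col4a3 and Col19a1, which had 0 counts in both WT libraries, at their bounds, and that of all genes was 0.01. Of the abundant genes, Col6a1 had 280.0 and 271 CPM in 6A against 159 and 232 CPM in WT, a log2 fold change of 0.49 ± 0.15 (edgeR adjusted p = 0.12), and Col8a1 had 40.9 and 43.4 CPM in 6A against 29.9 and 30.5 CPM in WT (0.48 ± 0.13, edgeR adjusted p = 0.085). The groups did not overlap in either gene, but neither was called. The share of such genes over all genes was not computed, so this adds no support. The Y-linked sum was also higher in both 6A libraries than in both WT libraries at day 0. Among the 12 fibroblast markers, 1 was called at day 0, Postn, with 56.0 and 59.3 CPM in 6A against 42.7 and 37.4 CPM in WT (0.53 ± 0.12, edgeR adjusted p = 0.042). The part of feeder RNA in these differences was not tested. Without WT day 0 replicate 1, edgeR called 1 collagen gene, lower in 6A, and without WT day 0 replicate 2 it called 3, all higher.

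At day 14, 9 of 44 collagen genes were called in 6A against WT, 8 lower and 1 higher (edgeR adjusted p under 0.05), beside 13.6% of all genes called (8.31% lower, 5.33% higher). The fitted difference was above 0 for 14 of the 44 genes and for 50.5% of all genes, and the median log2 fold change was -0.21 for the collagen genes and 0.00 for all genes. The genes lower in 6A came from several classes. Col2a1 was among the 11 fibrillar genes, Col18a1 among the 8 basement membrane genes, and Col2a1 and Col9a1 among the 8 cartilage genes. Col6a1 was among the 6 of type VI, and Col7a1 and Col8a1 among the 4 network-forming and anchoring genes. Col9a1 and Col20a1 were among the 9 fibril-associated genes, and Col26a1 was among the 2 of no other class. Col2a1 counts as fibrillar and as cartilage, since 4 genes are of both classes. Class medians were -0.13 for fibrillar, -0.02 for basement membrane and -0.87 for cartilage genes. The count moved to 15, 12 of them lower, without WT day 0 replicate 2, and to 16, 13 of them lower, when only the day 14 libraries were fitted. It was 4, all lower, when a fitted change over 1 on the log2 scale was required besides the call.

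**Figure D2:**
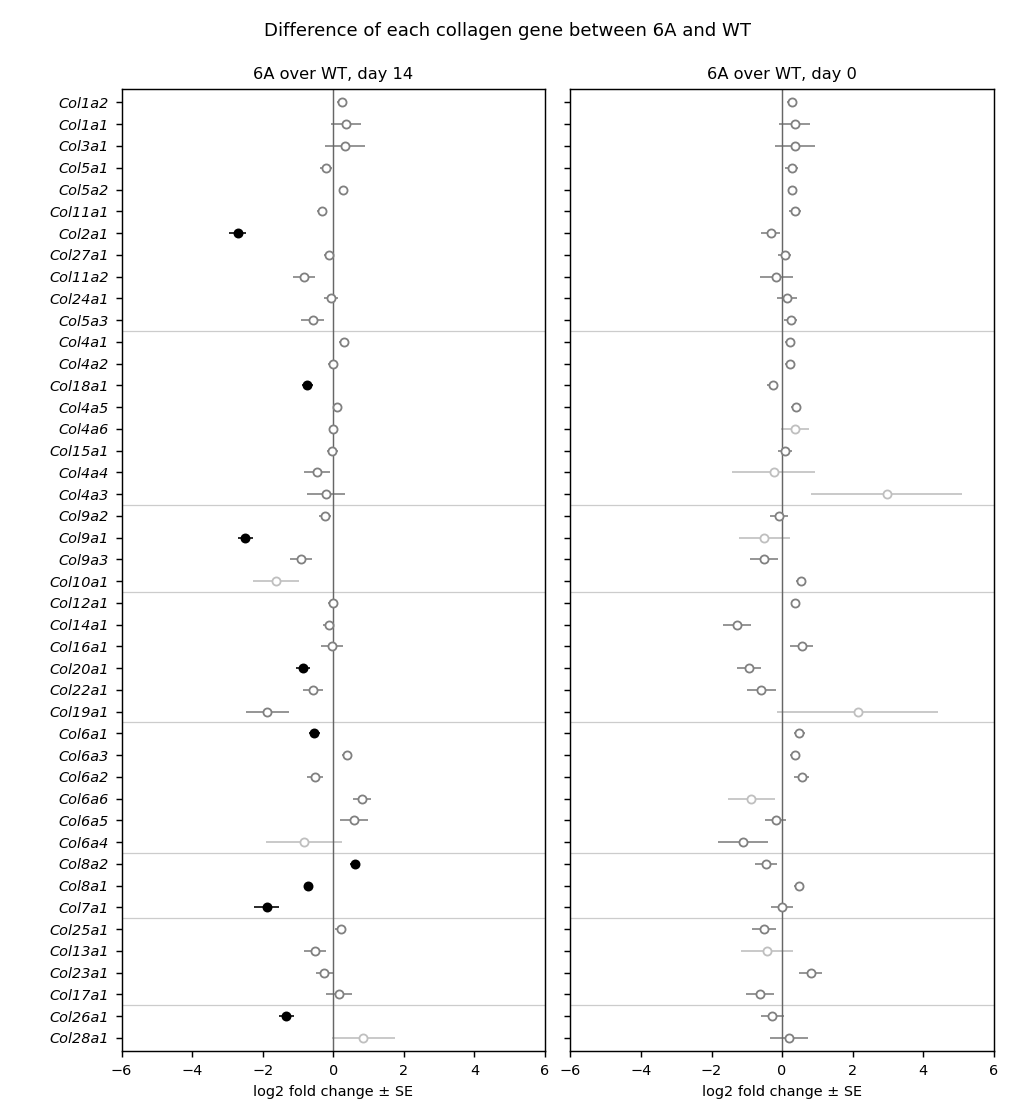
Log2 fold change of 6A against WT, with its standard error, for each of the 44 collagen genes at day 14 and at day 0. Filled black points had an adjusted p under 0.05, and light grey points had both group means under 1 CPM. The called genes all stand in the day 14 panel, with Col2a1 at -2.72 and Col9a1 at -2.49 farthest to the left.

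The largest differences were in cartilage types. In build mm10 with GENCODE M21, Col2a1 lies at chr15:97975602-98004695 on the minus strand and Col9a1 at chr1:24177610-24252684 on the plus strand. Col2a1, the fibril chain of cartilage that is also made in notochord and neural tissue of the embryo, had 13.2 and 11.0 CPM in 6A at day 14, against 91.6 and 68.1 CPM in WT at day 14. The groups were far apart, and the log2 fold change was -2.72 ± 0.23 (edgeR adjusted p = 1.1e-05). Col9a1, a chain of fibril-coating type IX collagen, had 4.35 and 4.25 CPM in 6A against 25.0 and 23.4 CPM in WT, a log2 fold change of -2.49 ± 0.21 (edgeR adjusted p = 4.5e-06). Its partner chains differed less: Col9a2 had a log2 fold change of -0.23 ± 0.17 (edgeR adjusted p = 0.45), and Col9a3, whose end overlaps Tcfl5 on the other strand, one of -0.92 ± 0.31 (edgeR adjusted p = 0.070). Per kilobase, Col9a1 over Col9a2 was 0.064 and 0.082 in 6A, against 0.306 and 0.401 in WT at day 14. Col11a1 had a log2 fold change of -0.33 ± 0.13 (edgeR adjusted p = 0.11). Col10a1 had 3 counts in 6A and 10 in WT at day 14, a ratio of 0.308 with an exact binomial 95% interval of 0.0545 to 1.20, which includes no difference.

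Markers of several tissues differed at day 14 too, beside 8.31% of all genes called lower and 5.33% higher. Of 7 tested cartilage markers, 2 were lower in 6A, Sox9 and Matn1, while Acan was not called (0.67 ± 0.34, edgeR adjusted p = 0.23). Matn1 and Ucma were at 0 CPM in 6A replicate 1 and at most 0.580 CPM in any day 14 library. All 6 neural markers were lower, with sums of 23.1 and 22.0 CPM in 6A against 162 and 155 CPM in WT, and all 6 cardiac markers were lower, with sums of 219 and 211 CPM in 6A against 1298 and 1488 CPM in WT. Of 6 smooth muscle markers 4 were lower, with sums of 1414 and 1306 CPM in 6A against 2166 and 1805 CPM in WT. In the other direction, 4 of 7 endothelial markers were higher, with sums of 397 and 409 CPM in 6A against 280.2 and 282 CPM in WT, and 3 of 10 endoderm markers were higher, with sums of 5362 and 5131 CPM in 6A against 4117 and 3842 CPM in WT. The called endoderm markers were Cubn, Amn and Lama1. Much of the endoderm sum was Sparc, which was not called, at 2757 and 2544 CPM in 6A and 2203 and 1931 CPM in WT. Of 12 fibroblast markers, Dcn was higher and Fap, Twist1 and Postn were lower. Of 4 tested bone markers, 1 was lower, Spp1, and the bone list summed to 60.4 CPM in each 6A library against 84.4 and 90.5 CPM in WT, with Ibsp at 0 in all 4. The part of these cell types in the collagen differences was not tested.

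Outside the cartilage types, 6 genes were lower, from several classes. Col7a1, the chain of the anchoring fibrils of skin, had 1.93 and 1.64 CPM in 6A against 6.61 and 6.64 CPM in WT, a log2 fold change of -1.88 ± 0.36 (edgeR adjusted p = 0.0028). Col26a1 had 8.88 and 6.76 CPM in 6A against 21.9 and 17.6 CPM in WT (-1.33 ± 0.21, edgeR adjusted p = 7.8e-04). For Col2a1, Col9a1, Col7a1 and Col26a1 the call held in each of 14 alternative analyses. The groups did not overlap in these 4 genes. As they were picked by their calls and the share over all genes was not computed, this adds no support. Col20a1, a member of the fibril-associated collagens, had 10.6 and 12.9 CPM in 6A against 22.0 and 20.6 CPM in WT (-0.85 ± 0.20, edgeR adjusted p = 0.010).

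Type VIII collagen, a short-chain network of vessel walls and the corneal endothelial membrane, was split between its chains. Col8a1 had 30.8 and 32.0 CPM in 6A at day 14 against 48.3 and 54.6 CPM in WT, a log2 fold change of -0.72 ± 0.13 (edgeR adjusted p = 0.0020). Col8a2 was the 1 collagen gene that was higher in 6A, with 226 and 205 CPM against 151 and 131 CPM in WT, a log2 fold change of 0.61 ± 0.14 (edgeR adjusted p = 0.011). Per kilobase, Col8a2 exceeded Col8a1 by 8.66 and 7.57 times in 6A, against 3.69 and 2.83 times in WT. At day 0 the order was reversed, with a ratio of 0.049 and 0.040 in 6A and 0.054 and 0.104 in WT, as Col8a2 had 1.36 to 2.68 CPM in the 4 day 0 libraries. Col8a2 rose by day 14 in 6A by 7.09 ± 0.21 and in WT by 6.02 ± 0.21 on the log2 scale, and the difference of these rises was not called (interaction 1.07 ± 0.34, edgeR adjusted p = 0.097).

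Col6a1 and Col18a1 were lower by smaller amounts. Col6a1 had 364 and 351 CPM in 6A against 549 and 491 CPM in WT at day 14, a log2 fold change of -0.54 ± 0.15 (edgeR adjusted p = 0.028). Its filament partner Col6a2 had 108 and 106 CPM in 6A against 159.7 and 148 CPM in WT, a difference of similar size that was not called (-0.52 ± 0.22, edgeR adjusted p = 0.16), while Col6a3 had 426 and 411 CPM in 6A against 324 and 318 CPM in WT (0.38 ± 0.13, edgeR adjusted p = 0.075). Per kilobase, Col6a3 over Col6a1 was 0.442 in each 6A library, against 0.223 and 0.244 in WT at day 14. Col18a1 had 382 and 296 CPM in 6A against 635 and 493 CPM in WT (-0.73 ± 0.16, edgeR adjusted p = 0.0096). Several of the smaller calls were lost when a library was left out, with fold changes of like size. Col6a1 lost its call without each of the 4 day 14 libraries in turn (log2 fold change from -0.62 to -0.46, edgeR adjusted p from 0.082 to 0.19). Col18a1 lost it without WT replicate 1 (-0.55, edgeR adjusted p = 0.12) or 6A replicate 2 (-0.56, 0.11). Col20a1 lost it without WT replicate 1 (-0.81, edgeR adjusted p = 0.087), 6A replicate 1 (-0.71, 0.12) or WT replicate 2 (-0.90, 0.065). Col8a2 lost it without 6A replicate 1 (0.54, edgeR adjusted p = 0.10) or WT replicate 2 (0.51, 0.14), while Col8a1 kept it in each of these fits.

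**Figure D3:**
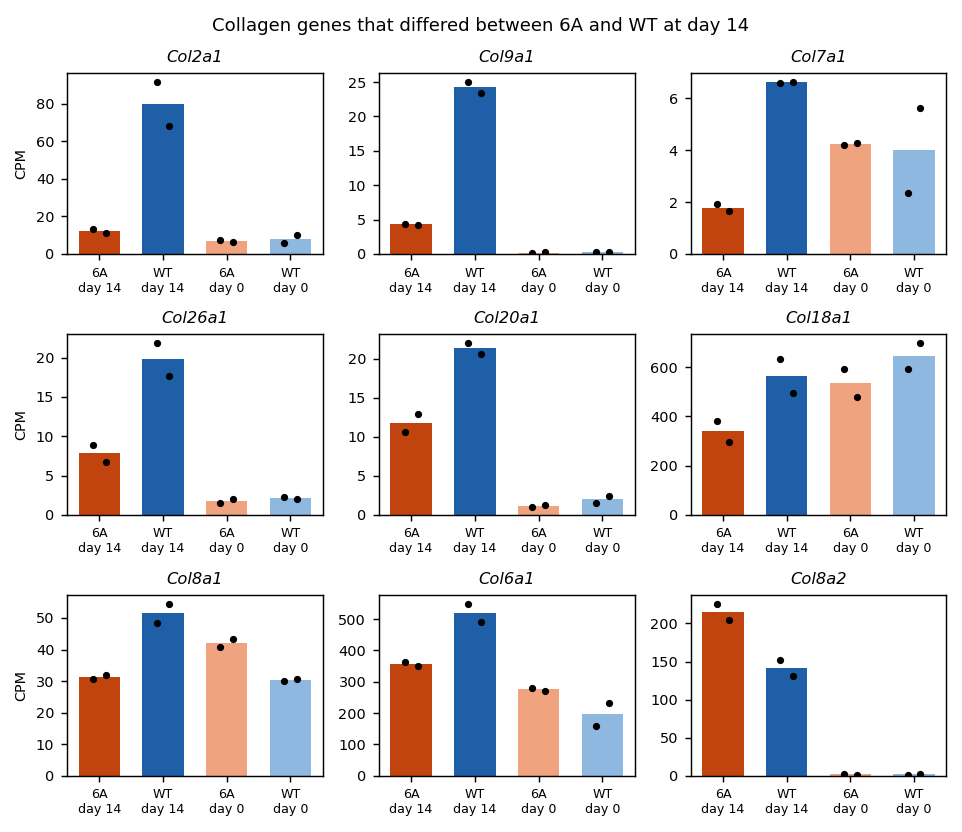
Normalised read count (CPM, linear axis from 0) of the 9 collagen genes called between 6A and WT at day 14, in the 4 groups, with bars at the mean of 2 libraries and a point for each library. Col2a1 and Col9a1 are low in 6A at day 14 and high in WT at day 14, and Col8a2 is the gene with higher 6A points.

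The most abundant collagens were not called at day 14. Col1a2 had a log2 fold change of 0.24 ± 0.14 (edgeR adjusted p = 0.31) and Col4a1 one of 0.29 ± 0.14 (0.21). Col5a1 had -0.21 ± 0.18 (0.51) and Col4a2 had -0.01 ± 0.15 (0.98). Col1a1 had 0.36 ± 0.44 (edgeR adjusted p = 0.68) and Col3a1 had 0.34 ± 0.57 (0.77), and their sign rests on 6A replicate 1: without it the values were -0.16 and -0.25. With standard errors of this size, smaller differences in these 2 genes were not detectable.

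The change from day 0 to day 14 differed between genotypes for 4 of 44 genes (edgeR interaction term, adjusted p under 0.05). The interaction was negative in each (a lower log2 change in 6A than in WT), beside 4.74% of all genes called (1.4% higher, 3.34% lower). Day 0 values enter this term, and the part of feeder RNA in them was not tested. Col2a1 rose by 0.87 ± 0.26 in 6A and by 3.26 ± 0.24 in WT on the log2 scale, a difference of -2.39 ± 0.35 (edgeR adjusted p = 0.0027). The rise in 6A lost its call without 6A day 14 replicate 1 (0.73, edgeR adjusted p = 0.065) or 6A day 0 replicate 2 (0.75, 0.061). Col8a1 fell by 0.43 ± 0.13 in 6A and rose by 0.77 ± 0.13 in WT, a difference of -1.20 ± 0.18 (edgeR adjusted p = 0.0026). Its fall in 6A was not called by DESeq2 (adjusted p = 0.059), without 6A day 14 replicate 1 (0.057) or without 6A day 0 replicate 2 (0.067). Col6a1 rose by 0.38 ± 0.15 in 6A and by 1.41 ± 0.15 in WT, a difference of -1.03 ± 0.21 (edgeR adjusted p = 0.013). Its rise in 6A lost the call without any of the 4 6A libraries or WT day 14 replicate 2 (0.051 to 0.13), and the difference lost it without any of the 4 day 14 libraries (0.050 to 0.078).

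Col7a1 had 1.93 and 1.64 CPM in 6A at day 14 against 4.19 and 4.27 CPM in 6A at day 0, a fall of 1.24 ± 0.37 on the log2 scale (edgeR adjusted p = 0.0079), which lost its call without 6A day 14 replicate 2 (-1.13, edgeR adjusted p = 0.051). In WT it had 6.61 and 6.64 CPM at day 14 against 2.34 and 5.65 CPM at day 0, and the change was not called (0.64 ± 0.31, edgeR adjusted p = 0.073). The difference between these, -1.88 ± 0.48 (edgeR adjusted p = 0.040), was not called by DESeq2 (adjusted p = 0.066) or without any of the 4 6A libraries or 2 WT day 14 libraries (0.067 to 0.15). Over the fits that leave out 1 library, the number of collagen genes with a called interaction ran from 2 to 8. It was 2 without each of the 4 day 14 libraries, 7 without WT day 0 replicate 1 and 8 without WT day 0 replicate 2.

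The genes that make, bind and degrade collagen were taken from 4 lists. Of 35 tested genes of collagen synthesis and crosslinking, 2 were higher and 2 lower in 6A at day 14, beside 5.33% of all genes called higher and 8.31% lower. That is near the share over all genes. P3h2, a prolyl 3-hydroxylase with a preference for type IV collagen, had 12.1 and 11.0 CPM in 6A against 26.2 and 28.7 CPM in WT (-1.25 ± 0.19, edgeR adjusted p = 7.0e-04). P4ha2, a catalytic subunit of prolyl 4-hydroxylase, had 75.5 and 64.9 CPM in 6A against 123 and 119 CPM in WT (-0.79 ± 0.13, edgeR adjusted p = 0.0013). Both enzymes act on proline in collagen chains before the helix forms. Lox, which crosslinks collagen and elastin, had 337 and 340.3 CPM in 6A against 240.3 and 233 CPM in WT (0.52 ± 0.10, edgeR adjusted p = 0.0039), and it was also higher at day 0 (0.63 ± 0.11, edgeR adjusted p = 0.011). Adamts14, which trims the amino end of procollagen, had 16.8 and 18.4 CPM in 6A against 10.1 and 8.22 CPM in WT (0.96 ± 0.17, edgeR adjusted p = 0.0021).

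Of 12 tested collagen receptors, 1 was higher and 1 lower, also beside 13.6% of all genes called either way. Adgrg1, an adhesion G protein-coupled receptor that binds type III collagen, had 17.0 and 18.8 CPM in 6A against 56.6 and 50.5 CPM in WT (-1.58 ± 0.14, edgeR adjusted p = 8.8e-06). Cd44, a receptor of hyaluronan that also binds collagen, had 91.0 and 96.3 CPM in 6A against 73.0 and 70.1 CPM in WT (0.39 ± 0.12, edgeR adjusted p = 0.043). The integrin chain Itga1 (0.39 ± 0.14, edgeR adjusted p = 0.083) and the receptor kinase Ddr2 (-0.29 ± 0.13, edgeR adjusted p = 0.18) were not called. Among 10 tested collagenases and their inhibitors, 4 were higher and 1 lower, beside 5.33% and 8.31% of all genes. Mmp9, a gelatinase, had 96.6 and 64.0 CPM in 6A against 11.5 and 12.3 CPM in WT (2.75 ± 0.20, edgeR adjusted p = 1.8e-06). Ctsk, the collagen-cleaving cathepsin of osteoclasts, had 32.0 and 27.8 CPM in 6A against 1.62 and 3.72 CPM in WT (3.41 ± 0.28, edgeR adjusted p = 6.7e-06). Timp3, an inhibitor of such proteases held in the matrix, had 545 and 585 CPM in 6A against 298 and 308 CPM in WT (0.90 ± 0.11, edgeR adjusted p = 7.6e-05). Mmp15, a membrane-bound protease, was lower at 47.5 and 46.4 CPM in 6A against 106 and 90.9 CPM in WT (-1.06 ± 0.13, edgeR adjusted p = 1.1e-04).

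Of 16 tested transcription factors that act on collagen genes or on the tissues that make them, 5 were lower in 6A at day 14 (Foxc1, Sox9, Pax9, Twist1 and Msx2) and 0 higher, beside 8.31% and 5.33% of all genes. Sox9, which activates Col2a1, Col9a1 and Col11a2 in cartilage, had 10.04 and 10.9 CPM in 6A against 24.9 and 26.0 CPM in WT (-1.28 ± 0.21, edgeR adjusted p = 9.2e-04). Foxc1 had 14.9 and 13.5 CPM in 6A against 45.9 and 39.0 CPM in WT (-1.58 ± 0.16, edgeR adjusted p = 2.8e-05). Pax9, a factor of the sclerotome from which vertebrae form, had 1.16 and 0.483 CPM in 6A against 5.80 and 6.72 CPM in WT (-2.92 ± 0.48, edgeR adjusted p = 0.0010). Twist1, a factor of mesenchyme, had 25.2 and 21.3 CPM in 6A against 42.7 and 37.5 CPM in WT (-0.78 ± 0.15, edgeR adjusted p = 0.0026). The groups did not overlap in these 4 genes, which were picked by smallest adjusted p. The share over all genes was not computed, so this adds no support. Over the 16 factors the median log2 fold change was -0.39.

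Between 29.1% and 31.6% of counts per library were given to the CAST or the 129 genome. A share was computed for collagen genes with at least 20 such reads in each of the 4 day 14 libraries, which held for 28 of 44. Of these, 17 were nearly only 129, with over 95% of reads from the 129 allele in each day 14 library, and 8 held both alleles, with shares between 20% and 80%. The remaining 3 were Col6a6 and the X-linked Col4a5 and Col4a6. This followed the chromosome for most of these genes. On chromosomes 1, 3, 4, 10, 15 and 16, which carry the 17 genes, between 83.4% and 89.0% of all genes with enough reads were nearly only 129 at day 14. The 8 genes with both alleles lie on chromosomes 2, 5, 6, 8, 9 and 11, where the percentage ran from 9.26% to 69.8%. Col1a2 on chromosome 6 and Col1a1 on chromosome 11 held both alleles, although 69.8% and 51.3% of genes there were nearly only 129. This frame by chromosome was chosen after seeing the data.

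The allele shares of several collagen genes changed with time. The ratio of 129 to CAST reads was tested with edgeR, in a comparison chosen after seeing the data, for genes that averaged 10 or more such reads per library. At day 14 against day 0 it was called for 18 collagen genes in 6A, 9 each way, beside 19.2% of all 12575 genes (10.2% with a higher 129 share, 9.09% lower). In WT it was called for 16, 7 with a higher 129 share and 9 with a lower, beside 16.3% of all genes (8.68% higher, 7.64% lower). Col1a1 had 129 shares of 50.8% and 49.2% in 6A and 51.9% and 52.7% in WT at day 14, against 99.3% and 99.1% in 6A and 99.6% and 98.8% in WT at day 0. Col1a2 had 33.5% and 34.6% in 6A and 34.9% and 35.8% in WT at day 14, against 64.7% and 61.7% in 6A and 69.6% and 74.6% in WT at day 0. Each of the 6 genes with both alleles at day 14 and enough reads at day 0 had a higher 129 share in every day 0 library than in any day 14 library. The 6 genes were picked by their day 14 shares and the pattern was not counted over all genes, so it adds no support. They lie on chromosomes 2, 6, 8, 9 and 11. Median 129 shares of all genes on chromosomes 8 and 9 were 56.6% and 56.1% at day 0, against 40.8% and 51.0% at day 14. On chromosomes 2, 6 and 11 they were lower at day 0, at 91.8%, 98.1% and 95.4%, against 97.2%, 98.8% and 97.4%.

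The genes that were nearly only 129 at day 14 had lower 129 shares at day 0 or stayed. They were picked by day 14 shares close to the upper limit. A large shift could therefore go only this way, and its direction is no contrast with the genes above. Col6a3 had CAST shares of 0.82% and 0.95% in 6A and 1.20% and 0.74% in WT at day 14, against 23.8% and 22.6% in 6A and 24.1% and 20.8% in WT at day 0. Col16a1 had 0.72% and 0.95% in 6A and 1.20% and 1.45% in WT at day 14, against 40.3% and 41.5% in 6A and 36.2% and 41.2% in WT at day 0. On chromosomes 1 and 4, where these genes lie, the median 129 share of all genes at day 0 was 98.3% and 98.0%. Col3a1 and Col5a2 on chromosome 1 and Col8a1 on chromosome 16 also held more CAST reads at day 0 than at day 14, while Col18a1 and Col6a1 on chromosome 10 kept 129 shares of 98.6% or more in all 8 libraries. The Y-linked signal was present at day 0 and near 0 at day 14, and the part of feeder RNA in these allele shares was not tested. In 6A against WT at day 0, the ratio was called for 1 collagen gene, Col1a2 (-0.61 ± 0.14 on the log2 scale, edgeR adjusted p = 0.025), beside 0.167% of all genes (0.0398% higher, 0.127% lower), and 6A libraries had the lower 129 share. This call was lost without 6A day 0 replicate 1, without 6A day 0 replicate 2 or without WT day 0 replicate 2.

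**Figure D4:**
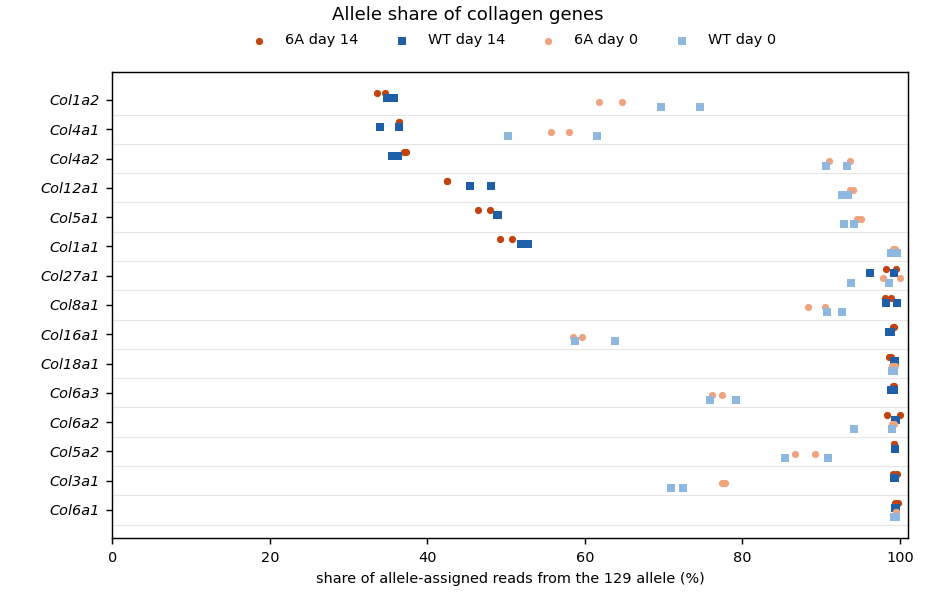
Share of allele-assigned reads from the 129 allele (percent) for the 15 collagen genes with at least 20 such reads in all 8 libraries, with a point for each library. Genes such as Col1a1 stand near 50% at day 14 and near 99% at day 0, while Col6a3 and Col16a1 stand near 99% at day 14 and lower at day 0.

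For the X-linked pair, the allele share bears on which X chromosome was used. At day 14 the CAST allele gave most reads of both genes in both genotypes. Col4a6 had 40 and 31 reads from the 129 allele beside 818 and 830 from the CAST allele in 6A, shares of 4.66% (Wilson 95% interval 3.44 to 6.29) and 3.60% (2.55 to 5.07). In WT it had 12 and 11 reads beside 755 and 983, shares of 1.56% (0.90 to 2.71) and 1.107% (0.62 to 1.97). Both 6A shares were above both WT shares, and the log2 ratio was higher in 6A by 1.69 ± 0.38 (edgeR adjusted p = 0.024), beside 0.0398% of all genes called and 0.0318% called higher. Col4a5 had shares of 6.54% (5.01 to 8.50) and 4.15% (2.92 to 5.86) in 6A, against 1.52% (0.80 to 2.85) and 2.96% (1.94 to 4.48) in WT. These groups did not overlap either, but the difference was not called (1.27 ± 0.36, edgeR adjusted p = 0.33). The call on Col4a6 was lost without any of the 4 day 14 libraries in turn, at adjusted p of 0.061 without 6A replicate 2, 0.22 without WT replicate 1, 0.90 without 6A replicate 1 and 1.0 without WT replicate 2.

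Other X-linked genes moved in the same direction. Of 238 X-linked genes with at least 100 allele reads in each genotype at day 14, 201 had a higher 129 share in 6A, with a median of 13.4% in 6A and 9.75% in WT, so that both collagen genes lay under the median in each genotype. The total levels of the pair overlapped between genotypes at day 14: the log2 fold change of 6A against WT was 0.10 ± 0.11 for Col4a5 (edgeR adjusted p = 0.63) and 0.00 ± 0.12 for Col4a6 (0.99). At day 0, 72 of 73 allele reads of Col4a5 came from the 129 allele in 6A, and 42 of 44 in WT, the reverse of day 14. Col4a6 had 5 of 11 such reads in 6A and 5 of 7 in WT at day 0, too few for a share. The Y-linked signal was present at day 0, and the part of feeder RNA in these reads was not tested. Shares of other X-linked genes at day 0 were not compared. The intervals and floors cover counting error only.

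**Figure D5:**
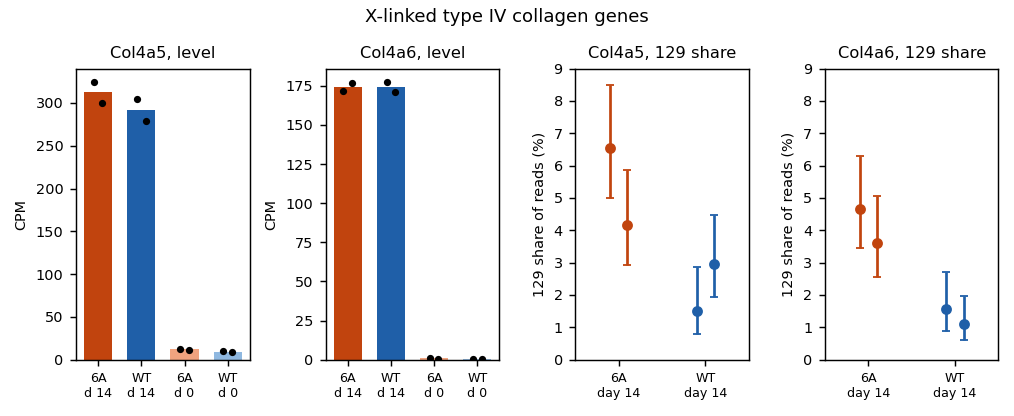
Level (CPM) of Col4a5 and Col4a6 in the 4 groups, with bars at the mean and a point for each of 2 libraries, and the share of reads from the 129 allele (percent) in the day 14 libraries with Wilson 95% intervals. The levels of 6A and WT overlap at day 14, while the 6A shares sit above the WT shares in both genes.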

How the data were processed

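RNA was depleted of ribosomal RNA and made into directional libraries read as 150-base pairs, per the labels' protocols. The submitters' processing notes name cutadapt 1.4.2, STAR 2.7.10a and build mm10; the sources used here do not give the counting tool, its strand setting or how alleles were assigned. As deposited by the authors, each library has raw read counts for 24421 genes, in total and as assigned to CAST and to 129.

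Counts were analysed with edgeR 4.0.16 under R 4.3.3: filterByExpr by group, TMM scaling, and a robust quasi-likelihood fit over all 8 libraries with 4 group coefficients and 4 residual degrees of freedom, with Benjamini-Hochberg adjustment over 15458 genes and calls under 0.05. The common coefficient of variation was 0.111. CPM are TMM-scaled, and CPM per kilobase use the exons of protein-coding transcripts in GENCODE M21. Allele ratios were fitted with the library as a block. Alternatives were DESeq2 1.42.0, its size factors, no low-count filter, a log2 threshold of 1, only the groups compared, a replicate block, other allele minimums (5 and 20 reads) and each library left out in turn. The code was tested on simulated data.

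Members and gene lists were chosen with earlier results of these data known. Per-library values are given for genes called between genotypes or in the interaction, for the X-linked genes and for the 4 highest genes per kilobase of the fibrillar, basement membrane and cartilage classes, and for up to 4 genes of each pathway list by smallest adjusted p at day 14. Other genes named with values, such as Col5a2, Col5a3, Col6a2, Col6a3, Col9a3, Col16a1, Col4a3, Col4a4, Acan and Hapln1, were chosen after their values were seen. In every group the 2 libraries differed beyond sampling noise and were counted as 2.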

Additional observations from a re-analysis of the deposited data

Results flagged for a closer look

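The 6A to WT difference of 4 collagen genes was not the same at day 14 and day 0. This was called by a test of the change itself, the genotype by day interaction of edgeR. Day 0 values enter it, where the Y-linked sum was higher in 6A, and the part of feeder RNA in them was not tested. The differences, on the log2 scale and as 6A over WT at day 14 minus 6A over WT at day 0, were -2.39 for Col2a1, -1.20 for Col8a1, -1.03 for Col6a1 and -1.88 for Col7a1 (edgeR adjusted p = 0.0027, 0.0026, 0.013 and 0.040). In Col8a1 and Col6a1 the fitted 6A value was below WT at day 14 and above WT at day 0. In Col2a1 the gap between genotypes was present at day 14, where 13.2 and 11.0 CPM in 6A stood against 91.6 and 68.1 CPM in WT. In Col7a1 the WT libraries of day 14 lay close together (6.61 and 6.64 CPM), while those of day 0 were spread (2.34 and 5.65 CPM).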

How the results depend on the processing

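With the replicate number as a block, edgeR called 3 collagen genes at day 0 (all higher in 6A), 10 at day 14, 41 with time in 6A, 40 with time in WT and 4 in the interaction; deviations of same-numbered libraries correlated by 0.15 at day 14, 0.057 at day 0, 0.24 between days in 6A and 0.0042 between days in WT, and with 2 numbers per group and no label that ties them the samples share only a number. At day 0 the count was 1 without the low-count filter and 0 to 3 with a library left out, against 0. At day 14 it was 4 with the log2 threshold, 16 with only the day 14 libraries and 6 to 15 with a library left out, against 9, and 11 with RLE size factors. The interaction count was 2 to 8 with a library left out, against 4. Of 9 called genes at day 14, 4 kept their call in every alternative, as did 2 of 4 in the interaction. Leaving out a library gave 35 to 40 called genes with time in 6A and 39 to 40 in WT. The changed allele ratio at day 0 was called for 0 to 1 collagen genes with a library left out. The log2 allele difference of Col4a6 ran from 1.43 to 1.93 with a library left out, and that of Col4a5 from 0.88 to 1.87. Uncalled log2 values at day 14 that changed sign were those of Col4a6 (-0.00606 with only the day 14 libraries, -0.0241 to 0.0292 with a library left out), Col3a1 (-0.25 to 0.77) and Col1a1 (-0.16 to 0.75) with a library left out, Col9a2 (-0.457 to 0.0257) and Col4a2 (-0.132 to 0.116 with a library left out, 0.0262 with RLE size factors and with DESeq2, 0.0460 without the filter). The cause was not tested. Depth limits Col10a1, Col4a3, Col4a4, Col19a1, Col6a4, Col6a6, Col28a1 and, at day 0, Col9a1, each with at least 1 library under 3 counts.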
